A study of Mus musculus with 6 samples.

Results

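The genes for the core and linker histones were measured in osteoclasts induced from bone marrow cells of mice. Members were all transcript probes whose gene name on the array begins with Hist1h to Hist4h (the histone gene clusters) or with H2af, H1f or H3f (histone variants outside the clusters). This gave 71 gene names of 37074 on the array, 56 cluster genes and 15 variant genes, carried by 92 probes. One group came from 3 Ano1fl/fl mice, in which the gene of the chloride channel Ano1 is flanked by loxP sites but intact, and the other from 3 Ctsk-Cre;Ano1fl/fl mice, in which Cre recombinase is driven by Ctsk, the gene of cathepsin K, an enzyme of mature osteoclasts. The floxed Ano1 alleles are shared by both groups, the controls carry no Cre and were littermates of the others, and no group carrying Cre alone is among the samples. All 6 cultures were induced for 5 days with RANKL, the cytokine that drives osteoclast formation. The study's general protocol states mice of 6 to 8 weeks, 50 ng/ml RANKL and 30 ng/ml M-CSF, the growth factor of the macrophage lineage. Each sample was hybridised to 1 array with a single dye, and all 6 arrays were used. The groups are called control (Ano1fl/fl) and knockout (Ctsk-Cre;Ano1fl/fl) arrays below, by their labels.

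Of 59305 transcript spots, 33480 to 34951 per array rose well above background and none was saturated. Precision is limited by having 3 arrays per group. The genotype labels could not be checked on the targeted gene, because the only Ano1 probe, which starts at base 4391 of its transcript, cleared the background on 0 of 6 arrays, and the direction of every difference below rests on the labels. Marker genes of other cell types moved with the genotype. All 10 osteoclast markers and all 10 stromal markers (collagens and other matrix genes) were higher on the knockout arrays, with median log2 differences of 3.02 and 5.10. For osteoclast genes this direction is opposite to the one the study describes, by another assay, in cultures of these genotypes. In mean log2 signal the stromal list read 7.11 to 7.50 on the control arrays and 11.92 to 12.48 on the knockout arrays, and the osteoclast list read 10.77 to 11.15 and 14.38 to 14.72. Of 11 granulocyte precursor markers 7 were lower and 2 higher, of 9 macrophage markers tested 6 were lower and 1 higher, and of 4 B lineage markers tested 3 were higher and 1 lower. Among these counts and levels, the osteoclast marker Calcr and the stromal markers Lum and Postn entered the test only through the knockout arrays. The granulocyte precursor marker Prss57 entered only through the control arrays. Over all probes tested 30.6% were called lower and 21.8% higher. These RNAs are from whole cultures, in which fewer cells of a type and less RNA per cell cannot be told apart, and the part of these cell type markers in the histone values below was not tested.

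Replication-dependent histone genes lie in clusters, have no introns and are transcribed during DNA synthesis to package new DNA. Their messenger RNAs end in a conserved stem loop instead of a poly(A) tail, and they are destroyed when DNA synthesis stops. Several of these genes also have a poly(A) signal further downstream, and longer polyadenylated transcripts from them are known in cells that have left the cell cycle. Variant histones, such as H3.3, H2A.Z and macroH2A, come from genes outside these clusters, many of them with introns, whose messages have poly(A) tails and are made outside S phase as well. H2afx is an exception, since it makes both a stem loop message and a longer polyadenylated one. The labelling kit amplified the RNA into cRNA, a step that in kits of this type is primed at poly(A). How well each of these 2 forms of histone RNA was labelled was not tested.

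Cluster genes were measured by 68 probes, and 59 of these, for 50 genes, cleared the background on each array of the controls, of the knockouts or of both and were tested. Of these 59 probes, 8 were higher and 12 were lower on the knockout arrays at an adjusted p under 0.05 (limma with Benjamini-Hochberg adjustment over all probes). Those are 13.6% and 20.3%, while 21.8% of all 31848 probes tested were called higher and 30.6% lower, so in this fit cluster probes were called no more often than the array as a whole. The count of lower cluster probes turned on single arrays and on the scaling. It was 1 without the first control array, 30 without the third knockout array and 31 with no scaling. The median log2 difference, knockout minus control, was -0.37 for the cluster probes (-0.16 without the second knockout array) and -0.09 for all probes tested. Variant genes had 24 probes, and 20 probes of 12 genes were tested. Among these, 4 were higher (20%) and 8 lower (40%), with a median log2 difference of -0.23, and 5 of the 8 lower probes belong to the single gene H2afy. A filter that does not select on a difference, well above background on all 6 arrays, kept 57 cluster probes, of which the fit to all 31848 probes had called 6 higher and 12 lower, and all 20 variant probes with 4 and 8. Over all probes passing that filter, the same fit had called 20.2% higher and 29.9% lower. A new fit to the 28597 probes that pass it called 7 cluster probes higher and 14 lower.

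**Figure D1:**
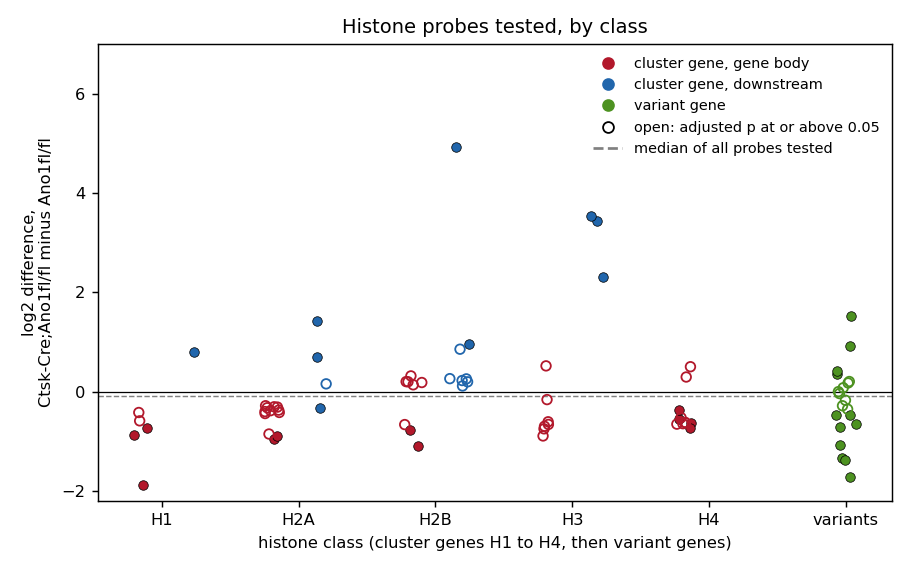
Log2 difference between knockout and control arrays (y axis) of the 79 histone probes tested, by histone class (x axis), with filled points for an adjusted p under 0.05, open points for the others and a dashed line at the median of all probes tested, -0.09. Gene body probes of the clusters (red) lie between -1.88 and 0.52, downstream probes (blue) between -0.32 and 4.93, and variant probes (green) between -1.73 and 1.51, the point at 4.93 being a probe that was below background on all control arrays.

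The cluster probes were divided by their position in the transcript. Probes that start before base 500 of their target transcript (before base 700 for the longer H1 messages) are called gene body probes here and read the coding region or the stem loop. Downstream probes start at or beyond these bases. Positions are counted in the array's target transcript, which for some probes is a long cDNA, and do not by themselves mark the end of a message. This boundary was chosen after the values were seen, and the difference between both kinds of probe was not tested. Of 43 gene body probes tested, 35 had a negative and 8 a positive difference, the median was -0.56, and 11 were called lower and 0 higher by limma, with 21 lower and 2 higher at an unadjusted p under 0.05. That is 25.6% called lower against the 30.6% of all probes. Over all probes tested 57.1% had a negative and 42.9% a positive difference, and 34.5% were lower and 24.3% higher at an unadjusted p under 0.05. Of 16 downstream probes tested, 15 had a positive difference, the median was 0.75, 8 were called higher (50% against 21.8%) and 1 lower. The groups did not overlap in 17 of the 43 gene body probes with lower knockout values and in 11 of the 16 downstream probes with higher ones, while 37.1% of all probes tested were lower and 26.9% higher without overlap. Only through the knockout arrays did 2 of the 16 downstream probes enter the test, and of the 14 that were well above background on all 6 arrays 6 were higher and 1 lower, with a median of 0.53. The downstream median was 0.41 with normexp correction, 0.49 with the series matrix values and 0.21 with the boundary at base 400. In H2B both kinds of probe were close, with medians of 0.16 in the gene body and 0.26 downstream.

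**Figure D2:**
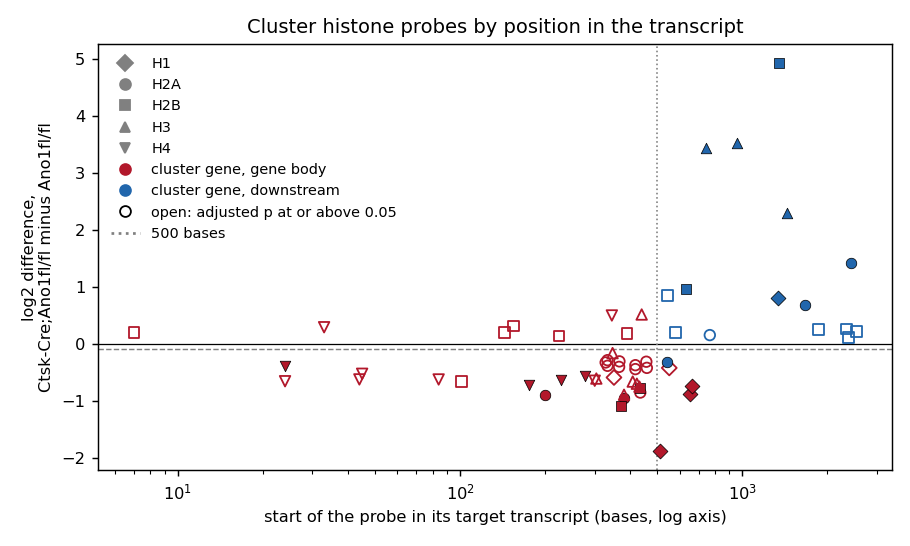
Log2 difference of the 59 cluster probes tested (y axis) against the base of the target transcript at which the probe starts (x axis, log scale), with filled points for an adjusted p under 0.05, gene body probes in red, downstream probes in blue, a dotted line at base 500 (the H1 boundary at 700 is not drawn) and a dashed line at the median of all probes tested. Of the 16 probes past the boundary all but 1 lie above 0, and 35 of the 43 before it lie below 0.

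Linker histone H1 binds the DNA that enters and leaves the nucleosome. The largest called fall of a cluster probe was that of Hist1h1b, which encodes a replication-dependent H1 (NM_020034, chr13:21871923-21871982, mm9, minus strand). Its log2 signals were 13.70, 13.86 and 13.53 on the control arrays and 11.98, 11.18 and 12.30 on the knockout arrays. All 3 knockout values lay below all control values, and the log2 difference was -1.88 (SE 0.28, adjusted p = 0.00221 by limma). Its probe lies wholly in the coding region, and it is shown because this gene was called in all 16 alternative analyses:
Hist1h1b: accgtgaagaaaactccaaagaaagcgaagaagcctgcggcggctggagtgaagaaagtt
Hist1h1e, another of the somatic H1 genes, fell by 0.74 on the log2 scale (adjusted p = 0.0351, limma), from 13.54, 13.55 and 13.14 to 12.64, 12.25 and 13.11. The third knockout array, at 13.11, is only just under the lowest control value, and the call held in 8 of 16 alternative analyses. The gene body probe of Hist1h1c read 11.96, 11.22 and 10.85 on the control arrays and 10.37, 10.27 and 10.75 on the knockout arrays, a fall of 0.88 (adjusted p = 0.0432, limma) that became -0.57 without the first control array and then did not pass. Hist1h1a and Hist1h1d had differences of -0.59 and -0.42 that did not pass the test.

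H2A pairs with H2B in the nucleosome. All 12 tested H2A gene body probes had negative differences, from -0.96 to -0.29, and 2 passed the test (16.7%), against 57.1% negative and 30.6% called lower over all probes. Hist1h2ai (NM_178182) read 10.26, 10.28 and 9.92 on the control arrays and 9.18, 8.75 and 9.67 on the knockout arrays, a log2 difference of -0.96 (SE 0.24, adjusted p = 0.016 by limma). Hist3h2a, on chromosome 11, read 14.29, 14.19 and 13.95 against 13.39, 12.62 and 13.72, a difference of -0.90 (SE 0.28, adjusted p = 0.0345 by limma). Without the second knockout array the difference of Hist3h2a was -0.59. The calls of Hist1h2ai and Hist3h2a held in 11 and 8 of 16 alternative analyses. Both groups are separate for these genes, and the third knockout array lay nearest the controls.

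Hist1h2ab, at -0.86, did not pass. Most H2A probes are not unique in sequence. The probe of Hist1h2ai shares 23 bases with that of Hist1h2ak, and its mm9 position overlaps those of the Hist1h2an and Hist1h2ao probes. Besides Hist1h2ah itself, 8 of the H2A gene body probes and the probe of the variant H2afj share a run of at least 20 bases with the probe of Hist1h2ah, at the end of the coding region that most H2A genes have in common. A few of them are shown for that reason, with capitals for the longest run shared with Hist1h2ah (in Hist1h2ah itself, the run shared with Hist1h2ak):
Hist1h2ah: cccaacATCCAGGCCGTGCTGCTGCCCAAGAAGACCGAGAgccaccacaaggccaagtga
Hist1h2ak: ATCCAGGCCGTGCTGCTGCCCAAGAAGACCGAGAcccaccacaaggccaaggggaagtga
Hist1h2an: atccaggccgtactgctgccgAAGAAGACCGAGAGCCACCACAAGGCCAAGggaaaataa
Hist2h2ac: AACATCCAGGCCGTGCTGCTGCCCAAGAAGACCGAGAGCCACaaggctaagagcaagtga
H2afj: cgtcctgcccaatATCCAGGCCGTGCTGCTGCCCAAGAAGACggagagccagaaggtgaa
The runs are 34 bases for Hist1h2ak, 30 for Hist1h2an, 42 for Hist2h2ac and 29 for H2afj. Hist1h2ah read 17.30, 17.35 and 17.23 on the control arrays and 16.93, 16.43 and 17.19 on the knockout arrays, a difference of -0.44 (adjusted p = 0.0948, limma). The knockout values of this gene all lie below the controls, the third by a small margin. Hist1h2ak, at 16.84, 16.79 and 16.72 against 16.50, 16.01 and 16.72, differed by -0.37 without passing the test, and on the third knockout array it reached the lowest control value. None of these 9 cluster probes was called, with differences of -0.44 to -0.29. How far each of the 9 reads its own gene was not tested.

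H2B gave the most mixed gene body values, with 5 of 8 tested probes above and 3 below 0 and a median of 0.16. Hist1h2bf fell by 1.1 on the log2 scale (SE 0.27, adjusted p = 0.0159 by limma), from 11.79, 11.76 and 11.23 to 10.44, 10.04 and 11.01. The gene body probe of Hist2h2bb fell by 0.77 (SE 0.23, adjusted p = 0.0323), from 12.00, 12.21 and 11.69 to 11.06, 10.88 and 11.66. Both of these probes hold the stem loop of the message and share a run of 21 bases, and their calls held in 11 (Hist1h2bf) and 8 (Hist2h2bb) of 16 alternative analyses. The 5 probes with positive differences, chosen here after their values were seen, were those of Hist1h2ba, Hist1h2bm, Hist1h2bn, Hist3h2ba and 1 of the 2 probes of Hist1h2bb, at 0.14 to 0.32, and none passed the test. Hist1h2bm read 12.83, 12.86 and 12.52 against 12.87, 12.85 and 13.07, and its coding probe, listed by the array for 4 RefSeq transcripts, is shown as an example of the H2B probes with a positive difference:
Hist1h2bm: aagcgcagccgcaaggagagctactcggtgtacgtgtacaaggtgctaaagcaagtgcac

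H3 and H4 form the tetramer at the centre of the nucleosome. Of 7 tested H3 gene body probes 6 had negative differences, with a median of -0.66, and limma called 0 of them. At an unadjusted p under 0.05, 4 were lower and 0 higher, against 34.5% and 24.3% of all probes. Hist1h3c came nearest, at -0.89 (adjusted p = 0.0501), and the third knockout array, at 13.05, lay above the lowest control, at 13.01. Of 11 H4 gene body probes 9 had negative differences, with a median of -0.62, and 4 were called lower, against 57.1% negative and 30.6% called lower over all probes. These calls held in 7 or 8 of 16 alternative analyses each. Hist4h4 on chromosome 6 fell by 0.72 (SE 0.24, adjusted p = 0.0434 by limma), from 14.03, 13.91 and 13.58 to 13.11, 12.67 and 13.57. Hist2h4 read 15.86, 15.83 and 15.63 against 15.16, 14.70 and 15.57, a fall of 0.63 (adjusted p = 0.0482). The probe of Hist1h4d at base 278, printed in 10 spots per array, read 17.18, 17.15 and 16.96 against 16.56, 16.15 and 16.90, a fall of 0.56 (adjusted p = 0.0481), and it shares 20 bases with a probe of Hist1h4k. Without the second knockout array the differences of Hist2h4 and of this Hist1h4d probe were -0.41 and -0.36, and neither passed. In each of these 3 the third knockout array lay only just under the lowest control. Hist1h4h, the dimmest of the called H4 probes, fell by 0.38 (adjusted p = 0.0224), from 5.75, 5.51 and 5.70 to 5.16, 5.41 and 5.26. Its difference was -0.58 without scaling, and with normexp correction (-0.14) and the series matrix values (-0.18) it did not pass. The H4 probes of Hist1h4i and Hist1h4m had positive differences, 0.29 and 0.50, that did not pass the test.

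The gene body probes moved together from array to array. The second knockout array was the lowest of all 6 in 34 of the 43 probes, and the third knockout array was the highest of the knockout arrays in 42. The second knockout array also had the fewest spots well above background (33480) and the lowest median processed signal (32.1) of all 6. The part of this in its histone values was not tested. As medians of each probe's deviation from its control mean, the knockout arrays stood at -0.60, -0.97 and -0.11, and the control arrays at 0.11, 0.09 and -0.22. Only 17 of the 43 probes were below all controls on the third knockout array, against 35 on each of the others. The calls therefore turned on single arrays. Without the third knockout array 29 gene body probes were called lower, without the second 5 and without the first 3, and without the first, the second or the third control array 1, 2 and 9. The median stayed negative in each of these fits, between -0.77 and -0.36.

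**Figure D3:**
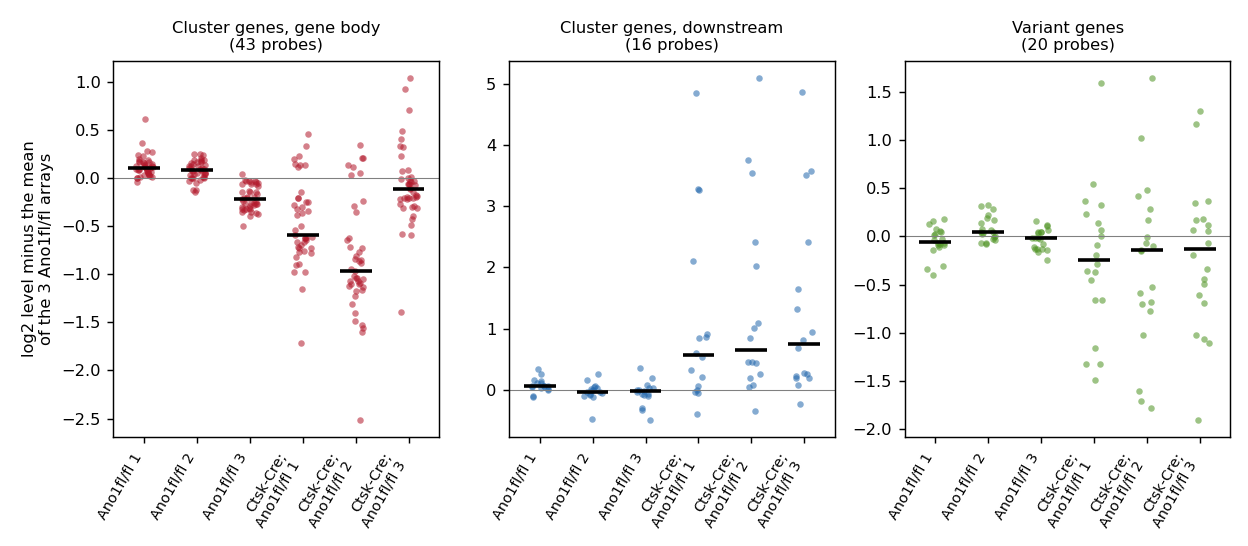
Log2 signal of each histone probe on each array minus its mean over the 3 control arrays (y axis), by array (x axis), for the 43 gene body probes, the 16 downstream probes and the 20 variant probes tested, with black bars at the medians. The gene body medians are -0.60, -0.97 and -0.11 on the knockout arrays, and the downstream medians are 0.57, 0.65 and 0.74.

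The largest differences among downstream probes were those of Hist2h3c2, Hist2h3c1 and Hist2h2bb, in the Hist2 cluster on chromosome 3. That cluster also holds the downstream probes of Hist2h2be, at 0.26 and 0.22, which did not pass, and of Hist2h2aa1. Hist2h3c2, an H3 gene, has 2 such probes, 211 bases apart, at bases 746 and 957. The one at base 957 (chr3:96042034-96042093, mm9, minus strand) read 7.43 ± 0.14 on the control arrays and 10.97 ± 0.24 on the knockout arrays (mean ± SD, n = 3 each), a log2 difference of 3.54 (SE 0.14, adjusted p = 1.8e-05 by limma). The other read 6.93, 6.97 and 7.24 against 10.33, 10.58 and 10.55, a difference of 3.44 (SE 0.12, adjusted p = 1.3e-05). On both probes each knockout array stood above every control array by more than 3 on the log2 scale. The downstream probe of the neighbouring gene Hist2h3c1 rose by 2.31 (SE 0.11, adjusted p = 2.7e-05), from 7.25, 7.16 and 7.20 to 9.30, 9.61 and 9.62. Neither of these H3 genes has a gene body probe under its own name. The gene body probe of Hist2h3b, an H3 gene of the same cluster, is listed for 3 RefSeq transcripts and differed by -0.61 without passing. How far it reads the other 2 genes was not tested. Hist2h2aa1, at base 1673, was well above background on 2 of 3 control arrays and read 4.30, 3.71 and 4.54 there against 4.72, 5.03 and 4.86, a difference of 0.69 (adjusted p = 0.0363) that was called in 5 of 15 alternative analyses and was 0.19 with normexp correction, 0.24 with the series matrix values and 0.45 without the second control array.

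The downstream probe of Hist2h2bb was not well above background on any control array, where it read 2.63, 2.46 and 1.80, and it read 7.14, 7.39 and 7.16 on the knockout arrays. Taking as its control level the dimmest signal that cleared the background there, it was at least 9.59-fold higher on the knockout arrays (adjusted p = 2.3e-05 by limma, from control values at background). That limit holds for the background-subtracted signal. The log2 difference was 1.63 with normexp correction and an offset of 50, and 2.26 with the series matrix values, and both fall short of it. It was designed on a cDNA, BC019122, and lies at chr3:96082754-96082813 (mm9, plus strand), 8698 bases from the gene body probe of that gene, so that its assignment to Hist2h2bb is the array's. The downstream median of 0.75 is the same with this probe at its bound. Of the downstream probes called higher, only that of Hist1h2bc is listed for a RefSeq transcript. The others are listed for cDNA or Ensembl entries, so that their assignment to genes is also the array's.

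In all, 4 genes have both a gene body and a downstream probe that were tested, and they allow both ends of a gene to be compared on the same arrays. In Hist1h1c the probe at base 1341 read 12.31, 12.28 and 12.17 on the control arrays and 12.86, 13.26 and 13.06 on the knockout arrays, a rise of 0.81 (SE 0.12, adjusted p = 0.00192 by limma), while the probe 688 bases upstream of it fell by 0.88. The rise was 0.53 with no scaling and still passed. Hist1h1c is the single gene in which probes of opposite sign both passed the test and were well above background on all 6 arrays. The call of its gene body probe held in 8 of 16 alternative analyses, and that of its downstream probe in 15. In Hist2h2bb the probe at base 433 fell and the one at base 1348 was higher, but the latter entered the test only through the knockout arrays and may not read the same message. In Hist3h2a the probe at base 200 fell by 0.90, and the probe at base 767 read 12.67, 12.55 and 12.73 against 12.65, 12.85 and 12.91, a difference of 0.16 that did not pass. In Hist3h2ba, an H2B gene, neither probe passed, at 0.18 for base 391 and 0.85 for base 542. Stretches of these probes follow, with capitals for the stem loop or its start and for the poly(A) signal:
Hist1h1c, base 654: gcctcccctaacaatccaaaaGGCTCTTTT
Hist1h1c, base 1341: tacacttgctttgccttattttgatcagca
Hist2h2bb, base 433: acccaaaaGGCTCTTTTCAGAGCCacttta
Hist2h2bb, base 1348: gttgtcagtttgAATAAAgacagagaaact
Hist3h2ba, base 542: gttcataatggtattAATAAAtttggttca

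**Figure D4:**
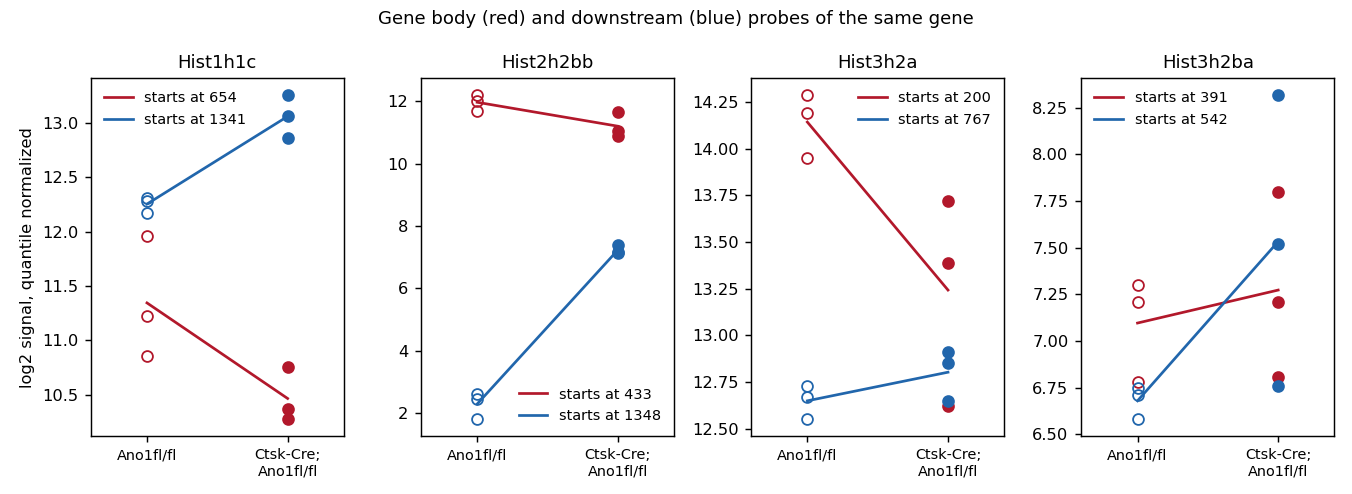
Log2 signal (y axis, own scale per gene) on the 3 control arrays (open points) and the 3 knockout arrays (filled points) for the gene body probe (red) and the downstream probe (blue) of the same gene, with lines joining group means. Gene body means fell and downstream means rose in Hist1h1c and Hist2h2bb, and the downstream probe of Hist2h2bb lay below background on the control arrays.

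The same letters were searched in all probes, on the strand of the probe, with the stem loop taken as the hairpin within the longest run that the probes of Hist1h2bf and Hist1h3i share. It reads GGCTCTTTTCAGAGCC and is in 0.00883% of all 56605 probes and in 4 of the 68 cluster probes, those of Hist1h2bf, Hist2h2bb, Hist1h3a and Hist1h3i. The probes of Hist1h2bf and Hist2h2bb were called lower, Hist1h3i differed by -0.70 and Hist1h3a by 0.52, both without passing the test. Its start, GGCTCTTTT, which the first motif contains, is in 9 cluster probes, of which 4 were lower and 0 higher by limma, where 30.6% of all probes were lower and 21.8% higher. A poly(A) signal, AATAAA or ATTAAA, is in 13.4% of all probes and in 5 cluster probes, of which 1 was higher and 0 lower. One of those 5, Hist1h2ag, is a gene body probe.

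In the Hist1 cluster 2 further downstream probes rose. Hist1h2bc, an H2B gene with a probe at base 632 (chr13:23784254-23784313, mm9), read 13.77, 13.63 and 13.56 against 14.52, 14.75 and 14.59, a rise of 0.97 (SE 0.10, adjusted p = 0.000489 by limma). Hist1h2ac, an H2A gene, rose by 1.42 (SE 0.27, adjusted p = 0.00584) at base 2426, from 4.63, 4.37 and 4.45 to 5.39, 6.51 and 5.80. In both genes the groups did not overlap. The difference of Hist1h2ac was 0.54 with normexp correction and 0.77 with the series matrix values, and it passed in both. The downstream probes of Hist1h2be, Hist1h2bg and Hist1h2bq differed by 0.11 to 0.26, and none of them passed the test. The exception was Hist1h2ae, whose probe begins with the last 12 bases of the stem loop and runs downstream. It fell by 0.32 (SE 0.08, adjusted p = 0.0176), from 7.22, 7.15 and 7.08 to 6.75, 6.81 and 6.92, with -0.56 under no scaling and -0.21 with normexp correction.

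Among the variant genes, forms of H2A hold 7 of the 8 probes called lower. H2afx encodes H2A.X, which is phosphorylated around DNA breaks, and its probe read 14.00, 13.75 and 13.71 on the control arrays and 12.49, 12.11 and 12.71 on the knockout arrays. The log2 difference was -1.38 (SE 0.17, adjusted p = 0.000989 by limma). H2afv, one of the 2 genes of H2A.Z, fell by 1.34 (SE 0.15, adjusted p = 0.000778), from 15.23, 14.99 and 14.99 to 13.74, 13.46 and 14.00. In both genes every knockout value lay below every control value, with the second knockout array lowest and the third nearest the controls, the same order as in the gene body probes of the clusters. The other H2A.Z gene, H2afz, with 10 spots per array, read 16.68, 16.61 and 16.62 against 16.44, 16.50 and 16.44. Its difference of -0.18 (SE 0.07, adjusted p = 0.076) did not pass, although its groups did not overlap. It was called in 5 of 16 alternative analyses, with a difference of -0.45 under no scaling (adjusted p = 0.0361 by limma) and a range of -0.45 to -0.15 over all 16.

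MacroH2A carries a large domain beyond the histone fold and is linked to silent chromatin. All 5 probes of H2afy, the gene of macroH2A1, were lower on the knockout arrays. The largest fall was at base 857, on a probe listed for NM_001159514 and NM_001159515 but not for the other 2 coding transcripts that the array lists for the probes of this gene, which read 9.55, 9.43 and 9.29 against 8.26, 8.40 and 8.40, a difference of -1.07 (SE 0.10, adjusted p = 0.000297 by limma). Those at bases 636, 1084 and 1288 differed by -0.48, -0.65 and -0.71. The fifth, at -0.47 (-0.71 with no scaling), was designed on a cDNA and lies on the strand opposite to the gene in the array's coordinates. H2afy2, which encodes macroH2A2, differed by 0.20 without passing. H2afy3, listed under a non-coding RefSeq accession, rose by 1.51 (SE 0.17, adjusted p = 0.000746), from 5.67, 6.20 and 6.17 to 7.61, 7.66 and 7.32 (0.94 with normexp correction), and its probe shares a run of 15 bases with that of H2afy2. H2afj, an H2A variant whose probe shares sequence with the cluster genes as shown above, differed by -0.35 and did not pass, and its values of 16.80, 16.77 and 16.76 against 16.49, 16.07 and 16.71 have their lowest point on the second knockout array. The difference of H2afj was -0.18 without that array, and it passed with no scaling (-0.61, adjusted p = 0.0366 by limma) and without the third knockout array (-0.50, adjusted p = 0.0372).

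H3.3 replaces the replication-dependent H3 in nucleosomes of non-dividing cells and comes from 2 genes. H3f3a was higher on the knockout arrays at its 2 probes near the end of the message. At base 707 it read 16.25, 16.22 and 16.40 against 16.66, 16.77 and 16.66, a difference of 0.40 (SE 0.09, adjusted p = 0.00826 by limma), and at base 507 the difference was 0.36 (SE 0.07, adjusted p = 0.00696). The array lists both of these probes for a second RefSeq transcript besides that of H3f3a. A probe at base 2, at the start of the message and listed for 1 such transcript, differed by 0.17 with overlapping groups. A further probe described as H3f3a, which the name rule leaves out, differed by -0.29 without passing. H3f3b read 15.99, 16.20 and 16.20 against 16.04, 16.03 and 16.20 at base 521, and the differences at its 2 probes were -0.04 (SE 0.10) and 0.00 (SE 0.08). With no scaling between arrays the rises of H3f3a shrank to 0.07 and 0.11 and did not pass, while the median of all probes tested moved from -0.09 to -0.32. The differences of H3f3b were -0.34 and -0.3 in that setting, also without passing.

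Linker variants moved in both directions. H1f0 encodes the linker histone that accumulates in cells that have stopped dividing, and it rose by 0.92 (SE 0.21, adjusted p = 0.0111 by limma), from 5.65, 6.04 and 5.48 to 6.27, 6.75 and 6.89. Its groups did not overlap, and the difference was 0.48 with normexp correction and 0.60 with the series matrix values. H1fx fell by 1.73 (SE 0.15, adjusted p = 0.000245), from 6.69, 7.0 and 6.65 to 5.29, 5.00 and 4.87, with differences of -0.80 and -1.12 under those settings. Both genes passed in each. A second probe named H1fx, designed on an expressed sequence tag and given no position on the array, differed by -0.29 and did not pass (adjusted p = 0.07, limma). It was called in 6 of 16 alternative analyses and was -0.52 with no scaling (adjusted p = 0.0241). H1foo, the oocyte form, read 7.25, 7.93 and 7.77 against 7.72, 7.64 and 7.82, a difference of 0.08 with overlapping groups.

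The 13 probes that were not tested were dim in both groups. They include the only probes of 9 genes: the variants H1fnt, H2afb1 and H2afb2, which are testis forms, and the cluster genes Hist1h1t, Hist1h2ad, Hist1h2al, Hist1h2bp, Hist2h2ab and Hist3h2bb-ps. The others are further probes of H1f0, Hist1h1d, Hist1h2ai and Hist2h2ac. Hist2h2ab was well above background on 2 control arrays and 0 knockout arrays, and the probe of Hist1h1d at base 2884 on 0 control arrays and 2 knockout arrays.

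Genes that act on histones were read from a single probe each, the tested one with the highest mean. Of 16 genes of histone message processing 3 were lower and 0 higher by limma, with a median log2 difference of -0.19, where 30.6% of all probes were called lower. At an unadjusted p under 0.05, 6 were lower and 0 higher (34.5% and 24.3% of all probes), and 8 were lower without overlap (37.1% of all probes). The 3 were Zfp473, a protein of the cleavage complex, at -0.73 (SE 0.17, adjusted p = 0.0121), Npat, the transcriptional coactivator of histone genes, at -0.46 (SE 0.11, adjusted p = 0.0118), and Ncbp1, of the cap binding complex, at -0.24 (SE 0.08, adjusted p = 0.037). Slbp, the protein that binds the stem loop, differed by -0.19 (adjusted p = 0.159). Of 25 histone chaperones tested 11 were lower and 3 higher, with a median of -0.21, where 30.6% of all probes were lower and 21.8% higher. Hjurp, which loads the centromeric H3, read 9.94, 9.89 and 10.01 against 8.60, 8.48 and 8.69, a fall of 1.36 (SE 0.09, adjusted p = 8.21e-05). Asf1b and Chaf1a, which deliver new H3 and H4 behind the replication fork, fell by 1.28 (SE 0.15, adjusted p = 0.000802) and fell by 0.96 (SE 0.13, adjusted p = 0.00156). Nap1l4, Ipo4 and Chaf1b, which works in a complex with Chaf1a, rose by 0.50, 0.36 and 0.30, with adjusted p of 0.0158, 0.00981 and 0.0405 by limma.

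Genes of DNA synthesis and mitosis fell on the same arrays. Of 25 S phase genes 21 were lower and 0 higher by limma (0 higher also at an unadjusted p under 0.05), with a median log2 difference of -0.81, and all 12 mitosis genes were lower, with a median of -1.83, against the same 30.6% of all probes. Cyclin A2 (Ccna2) fell by 2.13, thymidine kinase Tk1 fell by 1.63 and the ribonucleotide reductase subunit Rrm1 fell by 1.35 (adjusted p = 0.000236, 0.000174 and 0.000278 by limma). Of genes that act in mitosis, Plk1 fell by 2.53, Ccnb2 fell by 2.30 and Cdc20 fell by 2.17 (adjusted p = 0.000166, 0.000212 and 0.000294). As medians of the deviation from the control mean, the S phase list stood at -0.73, -0.97 and -0.72 on the knockout arrays and the mitosis list at -1.74, -2.18 and -1.52. The second knockout array was the lowest in both lists, as in the gene body probes, but on the third the S phase genes were as low as on the first, where the gene body probes stood at -0.11 and -0.60. The part of DNA synthesis genes in the histone values was not tested.

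**Figure D5:**
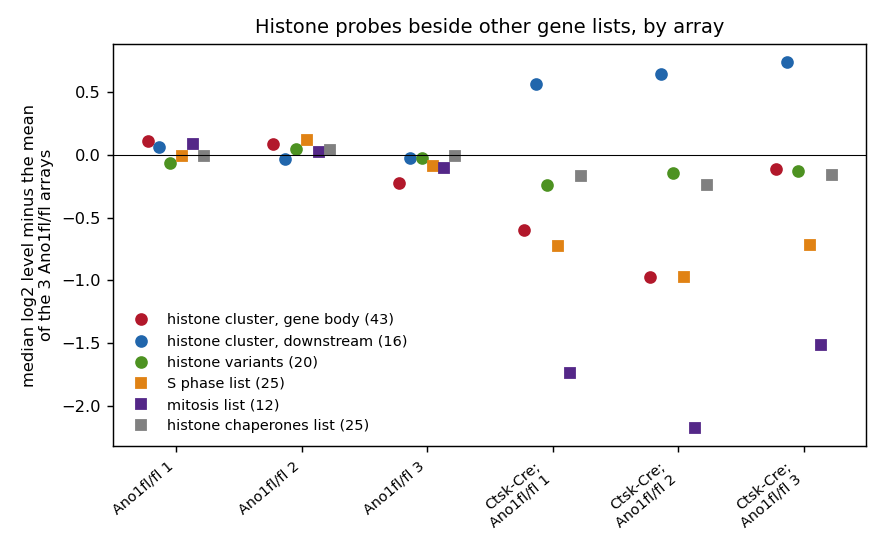
Median over the genes of a list, or over histone probes, of the log2 signal minus its mean over the 3 control arrays (y axis), by array (x axis), with the number of probes in the key. On the third knockout array the gene body probes stand at -0.11 and the S phase list at -0.72, and the downstream probes lie at 0.57 to 0.74 on the knockout arrays.

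All 71 genes were matched to current RefSeq genes, 68 of them under another symbol now, and 62 had a promoter in the RefSeq table (GRCm38.p6). In the 250 bases before the start, searched on both strands, several short motifs were more common in cluster genes than in all promoters. CCAAT was in 41 of 49 cluster promoters (83.7%), 7 of 13 variant promoters (53.8%) and 33.8% of all 32851 promoters, but in only 2 of 8 H4 promoters (25.0%). TATAAA was in 24 of 49 (49.0%), 1 of 13 and 12.4%. AAACACA, the letters of the H1 box, was in 5 of 6 H1 cluster promoters and 6.25% of all, and the octamer ATTTGCAT was in 6 of 11 H2B and 7 of 17 H2A cluster promoters and 1.60% of all. None of these 4 motifs was in the promoters of 5 cluster genes. These were Hist2h3c1 and Hist2h3c2, whose downstream probes rose, Hist1h4h and Hist4h4, whose gene body probes fell, and Hist1h4j. A match describes the letters and not the binding of a factor. The promoters of Hist1h1b, the cluster gene with the largest fall, and of Hist2h2bb, an H2B gene with the octamer, are shown, with these motifs in capitals, for chr13:21780626-21780875 (minus strand) and chr3:96269450-96269699 (plus strand):
Hist1h1b (now H1f5): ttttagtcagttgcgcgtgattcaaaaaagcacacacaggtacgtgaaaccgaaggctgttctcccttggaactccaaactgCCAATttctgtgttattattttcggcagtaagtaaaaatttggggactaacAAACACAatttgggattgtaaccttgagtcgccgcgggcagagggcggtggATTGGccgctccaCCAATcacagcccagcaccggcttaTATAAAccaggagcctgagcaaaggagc
Hist2h2bb (now H2bc18): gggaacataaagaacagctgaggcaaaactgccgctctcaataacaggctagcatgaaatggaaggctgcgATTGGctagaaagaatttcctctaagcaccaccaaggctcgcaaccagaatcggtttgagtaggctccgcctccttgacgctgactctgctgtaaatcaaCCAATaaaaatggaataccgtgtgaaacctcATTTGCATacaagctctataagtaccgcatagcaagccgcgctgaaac
Both hold CCAAT, also as ATTGG on the other strand, the first also holds AAACACA and TATAAA, and the second holds the octamer.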

How the data were processed

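Total RNA was labelled with Cy3 and hybridised to Agilent mouse 8x60K arrays, 3 per genotype. The authors deposited, per array, spot intensities read with Feature Extraction 10.7.1.1, background-subtracted and detrended within the array but not scaled between arrays. The deposited series matrix held the same spots' median signals, with no further step (largest difference 0 over 62973 spots). Probes keep the gene name and mm9 position the files give them.

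Here, log2 of the processed signal was taken, outlier spots (143 to 252 of the transcript spots per array) were set missing, and arrays were quantile normalized, the step the methods name, with limma 3.58.1 in R 4.3.3. Spots of a probe were averaged, and 14 of 56605 probes with missing values left out. The scanner software's flag for signal well above background decided which probes cleared it (a share of 0.5 of the spots was enough), and a probe was tested if it did so on all 3 arrays of either group. Genotypes were compared with limma on all 31848 probes tested, called at an adjusted p under 0.05. The fit was tested on simulated data. A lower limit of a fold used, for each control array, the higher of the lowest signal well above background and the probe's own.

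Named were every variant gene with a tested probe, in each cluster class up to 3 genes with the largest rise and 3 with the largest fall among called probes without overlap, and cluster genes whose called probes disagree in sign. In the lists of histone message processing, chaperone, S phase and mitosis genes, up to 3 rises and 3 falls were named by the same criteria. The cell type lists were outside this rule. Chromosome positions of promoters come from RefSeq. The members, the lists and the boundary between gene body and downstream probes were chosen with earlier results of these data known. Same-numbered arrays of the 2 groups were not paired by the labels, and deviations of same-numbered arrays correlated at -0.02, -0.08 and -0.09. Reading and plotting used R's data.table (version 1.17.8) and Python 3.11.15 with matplotlib 3.10.9 and pandas 2.3.3. Alternatives changed the scaling, the background correction, the values used, the filter, the handling of several probes per gene, the test, the design and the arrays included.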

Additional observations from a re-analysis of the deposited data

How the results depend on the processing

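No histone probe called among the members changed sign under the alternatives run probe by probe, which were not run for the genes of other lists. Over the called cluster probes and all variant probes tested, 516 alternative values kept direction and side of the threshold, 103 lost the call, 13 gained one and 6 turned sign, all of the last on probes not called: H1foo at -0.14 and H3f3a at base 2 at -0.03 without scaling, and, leaving out 1 array at a time, H1foo between -0.12 and 0.22 and H3f3b at base 667 between -0.04 and 0.03.

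Cluster probes called lower numbered 19 (gene body 18) with 75th percentile scaling and 31 (30) with no scaling, where variant probes called higher numbered 2 and the downstream median was 0.54. The variant median was -0.30 and -0.48 in these. The median of all probes tested was -0.14 and -0.32, against -0.09 in the report. With normexp background correction 20 cluster probes were lower (gene body 19, with 2 higher) and the downstream median was 0.41. With the series matrix values 19 were lower (gene body 18, with 1 higher) and that median was 0.49. With no filter on dim probes 4 were lower (gene body 3), and the variant and downstream medians were -0.10 and 0.59. A new fit to the probes above background on all 6 arrays gave 1 gene body probe higher and a downstream median of 0.53.

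With 1 probe per gene variant genes called lower numbered 3 with a median of -0.11, and with the mean of a gene's probes 4 with -0.10, beside 7 cluster genes lower. The methods' t-test at an unadjusted p under 0.05 called 5 of 59 cluster probes lower and 7 higher. Over all 31848 probes it called 10190 lower and 7493 higher. After Benjamini-Hochberg adjustment it called 3 cluster probes lower (gene body 2) and 7 higher, and 8287 and 6262 of all probes. Limma with a trend and robust spread called 21 cluster probes lower (gene body 20, with 2 higher). For the other alternatives the share of all probes is not given, so their counts cannot be set against the array as a whole. Calls over 2-fold numbered 5 higher and 2 lower in the clusters (gene body 2 lower, downstream 5 higher and 0 lower) and 1 higher and 4 lower among variants. With the boundary at base 400 the downstream probes had 2 lower and a median of 0.21, at 600 they had 0 lower, and at 700 they had 0 lower and the gene body 1 higher.

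Leaving out 1 array at a time gave 7 to 9 cluster probes higher, 1 (without the first control array) to 30 (without the third knockout array) lower and a median of -0.48 to -0.16. It gave 0 to 1 gene body probes higher, 1 to 29 lower and a median of -0.77 to -0.36, and 7 to 9 downstream probes higher, 0 to 1 lower and a median of 0.58 to 0.82. For variants it gave 4 higher each time, 8 to 9 lower and a median of -0.27 to -0.19.

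The same-numbered arrays did not deviate together (correlations of -0.02, -0.08 and -0.09). The labels do not state whether these arrays come from paired littermates, and the correlations cannot settle it. With the replicate number as a block 2 cluster probes were lower, both gene body (2), and 0 downstream probes were lower. The causes of these shifts were not tested. A few probes near background, such as that of Hist2h2aa1, limit what the dim end shows.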

Other observations

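Probes that the array names by an Ensembl transcript, and that the name rule therefore leaves out, also carry histone genes in their description. They were looked up after the member values were seen. A probe described as Hist2h2aa1, starting at base 529 of its transcript, read 11.43, 11.45 and 11.36 on the control arrays and 13.26, 13.70 and 13.42 on the knockout arrays, a log2 difference of 2.04 (SE 0.12, adjusted p = 6.93e-05 by limma). A probe described as Hist1h2be, at base 2020, read 6.22, 5.77 and 5.96 against 6.58, 6.92 and 7.08, a difference of 0.88 (SE 0.17, adjusted p = 0.00584). Those described as Hist1h4i and Hist1h4j, at bases 581 and 680, differed by 0.26 and 0.13 and did not pass the test, and the one described as H3f3a, at base 484, by -0.29, also without passing. Probes described as Hist1h4a and Hist4h4 were dim and not tested.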
